A study of Mus musculus with 18 samples.

Results

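The spotted cDNA-array experiment compared the mouse cochlear nucleus at postnatal day 7 (P7) and postnatal day 21 (P21), each slide carrying both ages in different dyes. It makes up 10 of the 18 samples of the series, as 5 co-hybridised pairs taken from the labels by platform and pairing. All tissue came from C57Bl6/J mice, with no treatment named, and every sample was a pool. In pairs 1 and 2 the P7 RNA was in Cy3 and the P21 RNA in Cy5, and each sample came from 20 pups. Pairs 3 and 4 had the same dyes, but each sample came from 5 pups and its RNA went through 1 round of linear amplification. Pair 5 had the dyes exchanged, with P7 in Cy5 and P21 in Cy3, and used unamplified RNA from 20 pups. The labels do not say whether pools of different pairs came from different animals, so p-values measure the spread between these pairs, which may be partly technical.

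The cochlear nucleus is the brainstem station that receives the auditory nerve. In mice, hearing begins between these ages, and the auditory brainstem is then acquiring myelin, mature synapses and its adult inhibitory circuits. On a spotted cDNA array, DNA from a library of clones is printed on glass, and 2 RNA samples labelled with different dyes compete for each spot. The ratio of the dyes then reflects relative RNA abundance, and also any difference in how a dye is taken up or read at a given spot. A dye exchange separates these, because a difference in abundance changes side with the dyes and a dye effect does not.

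The array held 15247 clones. Of these, 12397 had a mean intensity of at least 174 after scaling and were tested, and 2850 dimmer ones were not. The identifiers of the clones were not paired with genes in the tables used here, and 0 of 15247 matched the gene table at hand. Clones are therefore given by identifier. Neither gene groups nor the markers that would check the tissue could be read.

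The amplified samples gave brighter spots than the unamplified ones. Median channel intensity, as deposited, was 281 and 230 in pair 1 (P7, then P21), 195 and 181 in pair 2 and 170 and 181 in pair 5. It was 911 and 743 in pair 3 and 1073 and 1093 in pair 4. The lowest amplified median was thus above the highest unamplified one, while P7 and P21 overlapped. Amplified pools also held fewer pups, so amplification and pool size cannot be told apart.

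**Figure D1:**
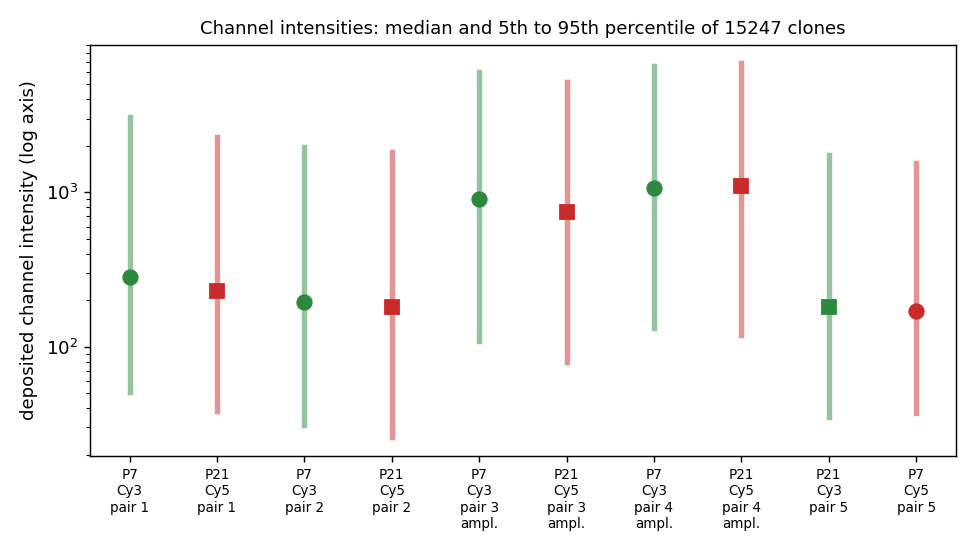
Deposited intensity of the 15247 clones in each of the 10 channels, on a log axis. Points are medians (circles P7, squares P21), bars run from the 5th to the 95th percentile, green is Cy3 and red is Cy5. The 4 amplified channels, with medians of 743 to 1093, lie above the 6 unamplified ones, with medians of 170 to 281.

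Channels resembled each other by amplification first. Across the 12397 clones, log2 intensities of unamplified channels from different pairs correlated at r = 0.82 to 0.94, and those of the amplified pairs at 0.86 to 0.95. Between unamplified and amplified channels r was 0.52 to 0.69. These r values are across clones, which are not independent replicates, and channels of one pair also share a slide (r = 0.90 to 0.96).

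Within the unamplified pairs, the exchanged pair resembled the channels of its own dye more than those of its own age. The P7 channel of pair 5, in Cy5, correlated with the P7 channels of pairs 1 and 2 at 0.82 and 0.89, and with their P21 channels, also in Cy5, at 0.88 and 0.94. The P21 channel of pair 5, in Cy3, correlated with the P21 channels of pairs 1 and 2 at 0.83 and 0.89, and with their P7 channels, also in Cy3, at 0.84 and 0.92. In all 4 matchings the same dye gave the higher value. Against the amplified pairs this held for the P7 channel (0.52 and 0.53 for the same age, 0.62 for the same dye in both) but not for the P21 channel (0.58 for the same age, 0.56 for the same dye, in both).

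**Figure D2:**
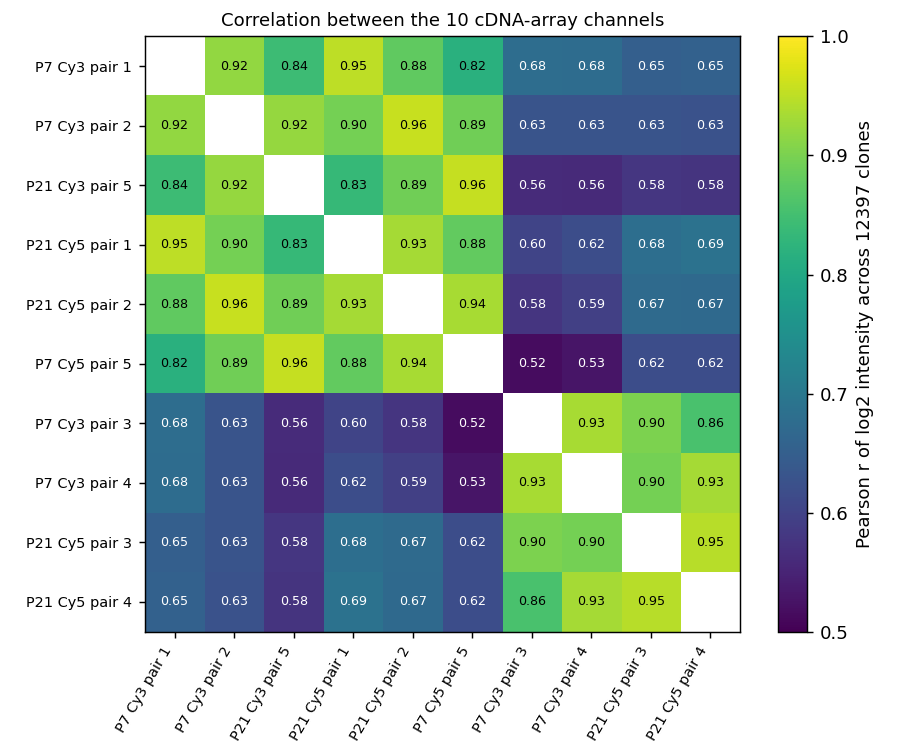
Pearson correlation of log2 channel intensity across 12397 clones between the 10 channels, ordered by amplification, dye and pair. Unamplified and amplified channels form separate blocks, with 0.52 to 0.69 between them, and channels of one pair correlate at 0.90 to 0.96.

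The log2 ratio of P21 over P7 was then taken within each pair. Its spread over clones was alike in 4 pairs, with an SD of 0.47, 0.44, 0.48 and 0.44 in pairs 1, 2, 4 and 5, and wider in pair 3, at 0.61. A ratio of at least 1 in size, a 2-fold difference, was found for 568 clones (4.58%) in pair 1, 474 in pair 2, 1233 (9.95%) in pair 3, 642 in pair 4 and 450 in pair 5.

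The ratios of pairs 1 to 4 resembled each other clone by clone, and those of pair 5 were reversed. Any 2 of pairs 1 to 4 correlated at r = 0.72 to 0.85. As labelled, pair 5 correlated with them at -0.77, -0.86, -0.64 and -0.67. Ratios centred on the median, without loess, gave -0.85 to -0.63. The labels state the dyes, yet with such correlations the direction of the age difference is not settled for this array. Ratios are therefore given as labelled, together with the value obtained when the sign of pair 5 is turned, and no clone is called higher at an age.

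**Figure D3:**
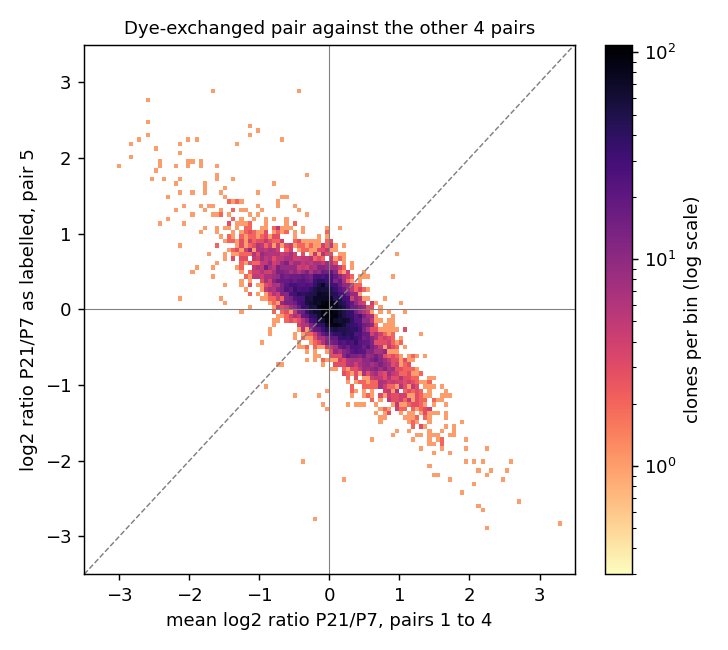
Log2 ratio P21/P7 as labelled in the dye-exchanged pair 5 (vertical axis) against the mean of pairs 1 to 4 (horizontal axis), with the shade giving the number of the 12397 clones in each bin on a log scale. The cloud runs opposite to the dashed line of equal ratios, and 551 of the 553 clones that were called with a mean of at least 1 in pairs 1 to 4 had the opposite sign in pair 5.

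With all 5 pairs as labelled, 0 of 12397 clones (0%) passed at a limma adjusted p under 0.05. The lowest adjusted p was 0.338, and 1522 clones had an unadjusted p under 0.05. With the sign of pair 5 turned, 5228 passed. The ratio kept one sign in all 5 pairs for 939 clones (7.57%) as labelled, 459 of them positive and 480 negative, and for 5847 clones (47.2%) with the sign turned. A ratio of at least 0.25 of one sign in every pair was found for 5 clones as labelled and 2183 with the sign turned, and one of at least 0.5 for 2 and 926 clones. At a size of 1 the counts were 0 and 173.

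The 5 clones beyond 0.25 as labelled were H3126D06, H3064H06, H3102D12, H3028H06 and H3031G09, the last 2 named after their values were seen. H3126D06, the only positive one, had ratios of 0.94, 0.97, 1.17, 0.69 and 0.74 in pairs 1 to 5. Its deposited intensities were 178 and 299 (P7, then P21) in pair 1, 142 and 273 in pair 2, 520 and 1050 in pair 3 and 1169 and 1983 in pair 4, but -14 and 10 in pair 5. By the labels, P21 was the brighter channel in every pair. In pair 5 both channels were near 0, so that its ratio there rests on the constant added before the log. The mean over 5 pairs was 0.90 (SD 0.19, n = 5; limma adjusted p = 0.338), and 0.60 (adjusted p = 0.0548) with the sign of pair 5 turned.

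H3064H06 lay on the other side, with ratios of -0.68, -0.57, -1.29, -1.18 and -1.02. Its intensities were 168 and 74 (P7, then P21) in pair 1, 77 and 38 in pair 2 and 110 and 47 in pair 5, against 4624 and 1569 in pair 3 and 3263 and 1413 in pair 4. By the labels, P7 was the brighter channel in both dyes, and the amplified channels were above every unamplified one. The mean was -0.95 (SD 0.31, n = 5; limma adjusted p = 0.361), and -0.54 (adjusted p = 0.134) with the sign of pair 5 turned.

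H3102D12 followed the same pattern, with ratios of -0.47, -0.44, -1.23, -0.73 and -0.72 and intensities of 133 and 69, 75 and 42, 2319 and 792, 1769 and 1057 and 64 and 31 in pairs 1 to 5. Its mean was -0.72 (SD 0.32, n = 5; limma adjusted p = 0.361), and -0.43 (adjusted p = 0.131) turned. H3028H06 had -0.37, -0.37, -1.02, -0.88 and -0.72, and H3031G09 had -1.71, -1.20, -0.39, -0.47 and -0.42. Both had a negative ratio in every pair. H3049A05 was the other positive clone closest to passing, with ratios of 0.60, 0.52, 0.43, 0.54 and 0.08 and a mean of 0.43 (SD 0.21, n = 5; limma adjusted p = 0.361; 0.40 and 0.00819 turned). It was a dim clone, between 40 and 306 in all 10 channels. Without pair 5, H3126D06, H3049A05, H3064H06 and H3102D12 all passed in limma, with adjusted p from 0.000139 to 0.00241. In that fit 40.0% of all tested clones passed. These clones were picked for a small p and one sign over pairs that include those 4, so their passing is no independent result. Over all settings tried, their adjusted p ran up to 1.

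Without the exchanged pair the picture was different. In pairs 1 to 4, 4958 clones (40.0%) passed in limma, 2465 (19.9%) brighter and 2493 (20.1%) dimmer in Cy5, the dye of P21 in these pairs. The split by sign depends on the normalisation, and with median centring in place of loess it was 2872 and 2306. For these slides the effects of age and of dye cannot be told apart. The median size of the called ratios was 0.50 on the log2 scale, 553 were at least 1, and 4804 had one sign in all 4 pairs. The share of clones called was larger among brighter clones. In 3 equal groups by mean intensity, from dim to bright, it was 30.1%, 39.8% and 50.0%, and the SD of the mean ratio was 0.34, 0.43 and 0.57.

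The ratios brightest in Cy5 were those of H3129A01 and H3014B01. H3129A01 had intensities of 354 and 2662 (Cy3, then Cy5) in pair 1, 267 and 2293 in pair 2, 258 and 4458 in pair 3 and 1689 and 14916 in pair 4. The Cy5 values all lay above the Cy3 values. In pair 5 it was 280 in Cy3 (P21) and 1856 in Cy5 (P7), so the Cy5 channel was again the brighter. Its ratio as labelled was 3.04, 3.07, 4.03 and 3.04 in pairs 1 to 4 and -2.84 in pair 5. The mean of pairs 1 to 4 was 3.29 (SE 0.16, n = 4; limma adjusted p = 6.19e-06).

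H3014B01 was at 222 and 1459 (Cy3, then Cy5), 141 and 895, 1342 and 6799 and 1152 and 9783 in pairs 1 to 4, and at 83 in Cy3 and 530 in Cy5 in pair 5. Cy5 was the brighter channel on all 5 slides. Its mean ratio in pairs 1 to 4 was 2.71 (SE 0.10, n = 4; limma adjusted p = 2.31e-06), against -2.53 as labelled in pair 5.

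The ratios brightest in Cy3 were those of H3139A05 and H3157F06. H3139A05 was at 595 and 69 (Cy3, then Cy5), 194 and 32, 7117 and 246 and 3947 and 338 in pairs 1 to 4, and at 240 in Cy3 and 48 in Cy5 in pair 5. Its ratios were -2.46, -1.90, -4.29 and -3.28, with a mean of -2.98 (SE 0.31, n = 4; limma adjusted p = 0.000149), and 1.90 as labelled in pair 5. H3157F06 varied less, with ratios of -3.01, -2.69, -2.91 and -2.80 (mean -2.85, SE 0.089, n = 4; limma adjusted p = 1.44e-06) and 2.04 in pair 5, from intensities of 3400 and 340, 1082 and 145, 3811 and 366 and 3892 and 499, and in pair 5 of 753 in Cy3 and 158 in Cy5. Both clones were brighter in Cy3 on every slide, the dye that by the labels carried P7 in pairs 1 to 4 and P21 in pair 5. With the sign of pair 5 turned, the means over 5 pairs of the 4 clones were 3.20 for H3129A01, 2.67 for H3014B01, -2.77 for H3139A05 and -2.69 for H3157F06.

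**Figure D4:**
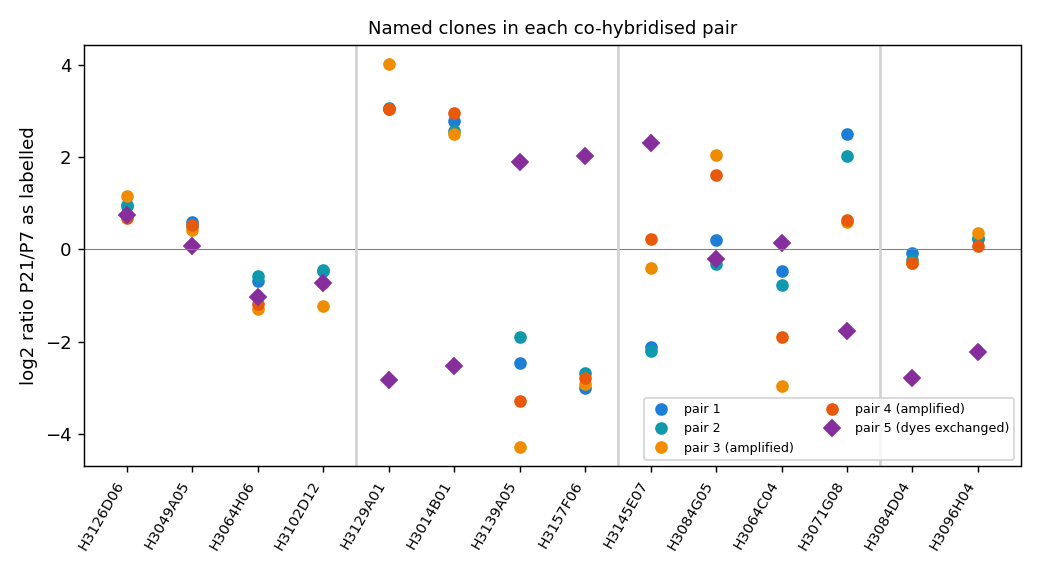
Log2 ratio P21/P7 as labelled (vertical axis) of the 14 clones described in detail, 1 point per co-hybridised pair, with pair 5 as a diamond. From left to right, grey lines separate the clones closest to passing over all 5 pairs, those with the largest ratios in pairs 1 to 4, those that differ by amplification, and those called for age beside a dye term. In the second set the diamond lies on the other side of 0 from the circles for all 4 clones.

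Pair 5 took no part in the test of pairs 1 to 4, so its sign can be read against their calls. As labelled it had the opposite sign in 4552 of the 4958 called clones (91.8%) and the same sign in 406, against 73.8% opposite over all clones tested. Among the 553 called clones with a mean of at least 1, 551 (99.6%) were opposite. The exceptions were H3038A08, with ratios of -0.83, -0.66, -2.46, -1.11 and -0.05, and H3058C12, with 0.50, 0.48, 1.73, 1.29 and 0.11. Their ratios in pair 5 were close to 0. Those 553 clones had a median absolute ratio of 1.02 in pair 5, where the mean of pairs 1 to 4 had 1.23. They were picked by size in pairs 1 to 4 and not in pair 5, so the 2 medians are not on equal terms.

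The unamplified pairs alone (1, 2 and 5) hold both dye orientations. As labelled, limma called 0 of 12397 clones (0%), no adjusted p was below 0.999, and 24 clones had an unadjusted p under 0.05, while 4971 passed with the sign of pair 5 turned. Pair 5 and the mean of pairs 1 and 2 were also combined clone by clone. Their average as labelled, in which a dye effect cancels, had an SD of 0.12 over clones. Their average as Cy5 over Cy3, in which an age effect cancels if the labels hold, had an SD of 0.42. The former was at least 0.5 in size for 23 clones and the latter for 2101. In 3 equal groups of clones from dim to bright, the SD of the dye-balanced average was 0.12 in each, while that of the average as Cy5 over Cy3 was 0.31, 0.40 and 0.53.

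The dye-balanced average reached 1 in size for 4 clones, named after their values were seen. H3084D04 had ratios of -0.07 and -0.23 in pairs 1 and 2 and -2.78 in pair 5, and H3080H12 had -0.26, 0.04 and -2.03. H3005F03 had -1.19, -0.51 and 2.86. H3114H12 was at -2.22 and -2.58, and at 0.17 in pair 5, with -2.33 and -1.46 in the amplified pairs. In the first 3, pair 5 held the ratio farthest from 0. H3114H12 was instead close to even in pair 5 and far brighter in Cy3 on the other 4 slides.

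A fit of all 5 pairs with an age and a dye coefficient called 3578 clones for dye (28.9%), 1872 (15.1%) brighter and 1706 (13.8%) dimmer in Cy5, and 2 for age (0.0161%). With the sign of pair 5 turned, the coefficients change places, giving 3578 for age and 2 for dye. The exchanged orientation holds 1 slide, which the fit meets exactly, so the spread behind all these calls is that of pairs 1 to 4 alone and takes no account of variation in pair 5. The age coefficient was -1.50 for H3084D04 and -1.002 for H3096H04 as labelled, and 1.28 and 1.23 with the sign turned. They are given with no p, since both rest on pair 5. H3084D04 was at 269 (P7) and 26 (P21) there, against 66 and 47 in pair 1, 46 and 30 in pair 2, 822 and 546 in pair 3 and 772 and 626 in pair 4. H3096H04 was at 265 and 46 in pair 5, against 113 and 108, 58 and 62, 334 and 367 and 733 and 797. On the other 4 slides the ratios were -0.30 to -0.07 for H3084D04 and 0.08 to 0.36 for H3096H04. Leaving out pair 1, pair 2, pair 3 or pair 4 gave 1, 1, 11 and 4 clones for age, and H3096H04 did not pass without pair 1 or without pair 2.

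The amplified pairs alone (3 and 4) called 2682 clones (21.6%) in limma, 1287 (10.4%) brighter and 1395 (11.3%) dimmer in Cy5. With 2 pairs this test leans on the spread shared across clones. The median size of the called ratios was 0.79, and 765 were at least 1. Pairs 1 and 2, which had the same dyes and unamplified RNA, called 4592 clones (37%) in the same test. The lists shared 2138 clones, which is 79.7% of the amplified list and 46.6% of the unamplified one. The sign was the same in 2133 of the shared clones.

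The 5 shared clones of opposite sign, named after their values were seen, were H3029H09, H3138G12, H3051H09, H3117F04 and H3155C01. H3029H09 averaged 0.35 in pairs 1 and 2 and -0.61 in pairs 3 and 4, and H3138G12 averaged 0.33 and -0.52. H3051H09 (-0.36 and 0.41), H3117F04 (-0.31 and 0.75) and H3155C01 (-0.43 and 0.54) went the other way. All of these means were under a 2-fold difference.

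Over all tested clones, the mean ratio of the amplified pairs correlated with that of unamplified pairs 1 and 2 at r = 0.83, as a description across clones. From the dimmest to the brightest of the 3 groups by intensity it was 0.73, 0.80 and 0.88. The SD over clones was 0.52 in the amplified and 0.44 in the unamplified means. The 2 amplified pairs differed from each other with an SD of 0.37, the 2 unamplified pairs with one of 0.25, and the means of the 2 kinds with one of 0.29. The first 2 values compare single pairs and the last compares means of 2 pairs, so they cannot be set directly against each other.

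**Figure D5:**
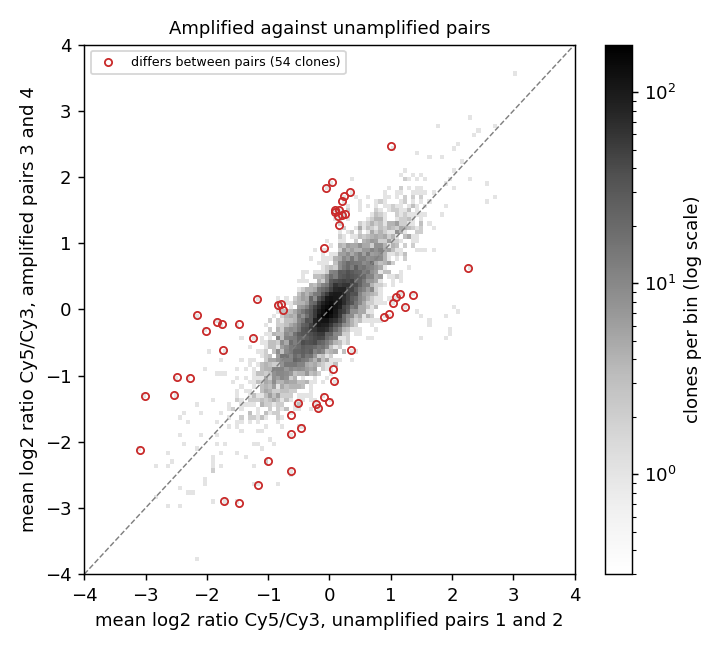
Mean log2 ratio of Cy5 over Cy3 in the amplified pairs 3 and 4 (vertical axis) against the unamplified pairs 1 and 2 (horizontal axis), with the number of the 12397 clones per bin in grey on a log scale. The cloud follows the dashed line of equal ratios (r = 0.83), and red circles mark the 54 clones called for a difference between the 2 kinds of pair, 23 of which reached the minimum intensity in one kind only.

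The difference between amplified and unamplified ratios was tested within one dye orientation, so that age and dye are the same on both sides. In limma 54 clones (0.436%) passed. The ratio of Cy5 over Cy3 was higher in the amplified pairs for 30 of them (0.242%) and lower for 24 (0.194%). Median centring in place of loess called 34, 14 and 20 in the same order. Of the 54 clones, 31 reached the minimum mean intensity of 174 both in pairs 1 and 2 and in pairs 3 and 4. A further 10 reached it only in the amplified and 13 only in the unamplified pairs. A test of the 10802 clones that reached it in both kinds, chosen after seeing the data, called 18, with 7 higher and 11 lower in the amplified pairs. Among the 54 the median size of the difference was 1.24 and the smallest 0.75, and 11 clones had means of opposite sign. The number rests on few slides. It was 0 without pair 1 (766 at an unadjusted p under 0.05), 0 without pair 2 (581), 351 without pair 3 and 1293 without pair 4, where the lone slide of a kind is assumed to vary like the other kind. Pair 5, unamplified and not used in this test, was nearer to pairs 1 and 2 than to pairs 3 and 4 in 47 of the 54 clones when read as Cy5 over Cy3, and in 28 when read as labelled. Over all tested clones, pair 5 as Cy5 over Cy3 also correlated more with pairs 1 and 2 (r = 0.77 and 0.86) than with pairs 3 and 4 (0.64 and 0.67). The share of nearer clones over all tested was not computed, so these counts are no check of the 54.

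H3145E07 was brighter in Cy3 in the unamplified pairs, at 2294 and 435 (Cy3, then Cy5) in pair 1, 1760 and 351 in pair 2 and 3671 and 624 in pair 5. In the amplified pairs it was nearly even, at 1321 and 813 in pair 3 and 995 and 1214 in pair 4. Its ratios were -2.11 and -2.21 in pairs 1 and 2 and -0.40 and 0.23 in pairs 3 and 4, a difference of 2.08 (SE 0.23, n = 2 pairs each, limma adjusted p = 0.00458). It reached the minimum in both kinds of pair, where its adjusted p was 0.00611. With pair 1, 2, 3 or 4 left out, the difference was 2.13, 2.03, 2.39 and 1.76, and it did not pass without pair 1 or pair 2. Each of these fits leaves 1 slide in one kind of pair, so they are given with no p. The other 3 clones reached the minimum in one kind of pair only and are described with no test. H3084G05 was dim without amplification, with ratios of 0.21 and -0.32 without and 2.06 and 1.62 with amplification, a difference of 1.89. It was at 16 to 40 in all 6 unamplified channels and reached 233 and 997 in pair 3 and 474 and 1681 in pair 4. Its unamplified ratio therefore comes from spots of very low signal.

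Of the negative differences, H3064C04 had ratios of -0.47 and -0.78 without and -2.97 and -1.90 with amplification, a difference of -1.81. Its unamplified channels were again dim, at 33 to 106, while the amplified Cy3 channels stood at 2025 and 847 and the Cy5 channels at 160 and 163, so it too passed the filter through the amplified pairs. H3071G08 had ratios of 2.50 and 2.03 without and 0.60 and 0.65 with amplification, a difference of -1.65. It passed the filter through the unamplified pairs. It was at 96 and 552 (Cy3, then Cy5), 89 and 390, 121 and 174 and 240 and 419 in pairs 1 to 4, and at 69 in Cy3 and 261 in Cy5 in pair 5. Over the 54 clones the median intensity as deposited, a geometric mean over channels for each clone, was 170 in the unamplified and 535 in the amplified channels. Over all tested clones it was 273 and 1271. These values are not scaled, so they cannot be set against the minimum of 174, nor the 2 kinds against each other. From dim to bright, the 3 groups by intensity held 29, 13 and 12 of the 54, so not all were dim. H3054E07 and H3147A06, named after their values were seen, had scaled means of 47707 and 36131 in pairs 1 and 2. In pairs 3 and 4 these were 14929 and 10915. Their differences were 1.43 and 1.38, and both reached the minimum in both kinds of pair. Whether they passed in the test of only such clones is not given here.

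The clone identifiers also carry the number of the library plate. Mean ratios of Cy5 over Cy3 in pairs 1 to 4 ranged from -0.20 to 0.21 over the 159 plates, with an SD of 0.082, where the SD over single clones was 0.46. A plate mean averages many clones, so these SDs cannot be set directly against each other. Plate means of pair 5, read as Cy5 over Cy3, correlated with the plate means of pairs 1 to 4 at r = 0.48 over plates, as a description. Where a spot lay on the slide was not analysed here.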

How the data were processed

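The deposited cDNA table holds 1 intensity per clone and channel. The authors' scanning and background steps are not given in the sources used here. Values below 0 numbered 131 of 152470 (0.0859%). The trimmed mean was 332 in the dimmest and 1758 in the brightest channel, which shows no common scale. For arrays, the number of slides limits the precision.

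Values below 0 were set to 0, channels scaled to a common 2%-trimmed mean (share 0.02 trimmed at each end) of 871, and log2(intensity + 43.5) taken. Log2 ratios of Cy5 over Cy3 were normalised by loess (span 0.3) within each pair and turned to P21 over P7 as labelled. They understate the differences of dim clones. Clones were tested from a mean of 174 upwards, 0.2 of that trimmed mean. Tests were two-sided, with limma 3.58.1 in R 4.3.3 (lmFit, eBayes), Benjamini-Hochberg adjustment over all tested clones and a threshold of 0.05. The prior variance followed mean log2 intensity, not the mean ratio. Channels are paired because the labels name the partner of each. Same-pair deviations from the age means correlated at 0.57 to 0.95. Both channels of a pair are also alike in amplification, so these values alone are no check of the pairing.

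The fits, except for the dye coefficient, were tried on simulated data that held no dye effect and no slide effect. That trial therefore does not cover these effects, and its outcome is not given here. Named clones follow a rule shortened to 2 per direction: the smallest p among clones of one sign in all 5 pairs, the largest ratios among those called in pairs 1 to 4 with one sign, and the largest differences by amplification. Others were named after their values were seen. The part, rules and gene lists were chosen with earlier results of these data known. Gene lists, clones averaged by gene and the comparison with the oligonucleotide arrays, whose deposited intensity values were not used here, need gene names and were not run.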

Additional observations from a re-analysis of the deposited data

Results flagged for a closer look

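Of 18 groups of 4 or 5 values checked for one value far from the rest, 5 held such a value. Chance flags about 1 in 20 groups, but this rate cannot be set against these 5, since most of the groups are ratios of clones named for those ratios. The mean correlation of pair 5 with the other pairs, as labelled, was -0.73, far below that of the other 4. The SD of the log2 ratio in pair 3 was 0.61, above the others. The ratio of H3129A01 in pair 3 was 4.03, where the other 3 pairs of the same dyes lay at 3.04 to 3.07. In pair 5, H3084D04 stood apart at -2.78 and H3096H04 at -2.23, which restates how they were picked, as their age call rests on pair 5. The cause of these was not tested.

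The ratio differed between amplified and unamplified pairs of the same dyes in 54 clones (limma), of which 31 reached the minimum intensity in both kinds. A limma test of only the 10802 clones that reached it in both, chosen after seeing the data, called 18. Named among the 54 were H3145E07 with a difference of 2.08, H3084G05 with 1.89, H3064C04 with -1.81 and H3071G08 with -1.65. All but H3145E07 reached the minimum intensity in one kind of pair only, so their differences are descriptions. Amplification and pool size cannot be told apart here.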

How the results depend on the processing

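The counts for all 5 pairs as labelled and for the unamplified pairs were 0 under every other setting tried except when pair 5 was left out or turned: leaving out 1 pair gave 0 to 4958 for all 5 and 0 to 4592 for the unamplified pairs, and turning its sign gave 5228 and 4971. For pairs 1 to 4, taking the channels as separate samples with no block for the pair called 51, and every other setting stayed within 1.5 times of 4958. For all 5 pairs this setting called 0 (151 unadjusted). For the difference by amplification, 54 became 34 with median centring, 95 with the larger added constant (0.2 of the trimmed mean), 32 with the stricter filter (0.5) 18 with the filter in each kind of pair and 185 with pair 5 added as Cy5 over Cy3, the last 2 chosen after seeing the data. It was 0 to 1293 with 1 pair left out. The 2 clones called for age beside a dye term became 6 with the smaller constant (0.01), 9 with no filter, 0 with the stricter filter (445 unadjusted) and 4 with values below 0 as missing, and 1 to 11 with 1 of pairs 1 to 4 left out, also chosen later. Turning the sign of pair 5, chosen later as well, gave 3578 for age and 2 for dye, and turned the age coefficients of H3084D04 to 1.28 and of H3096H04 to 1.23. The other counts for dye and those for the amplified pairs stayed within 1.5 times. With the prior variance following the mean ratio, also chosen later, pairs 1 to 4 called 5277 and the difference by amplification 48. H3084D04, H3096H04, H3084G05, H3064C04, H3071G08, H3049A05 and H3102D12 fell below the stricter filter and were not tested under it. Neither clone called for age could thus be called there. The cause of these changes was otherwise not tested. Of 188 values of named clones under other settings in which they were tested, 13 lost and 5 gained a call, and 168 kept their side. The other 2, the age coefficients given above, changed sign. H3139A05 was lost with no block (adjusted p = 0.0983) and H3129A01 with the variance following the ratio (0.0931). Averaging clones of 1 gene and the alternatives of the comparison with the oligonucleotide arrays were not run, for want of gene names, and leaving out 1 amplified pair leaves no residual degrees of freedom in that fit. No depth is recorded for arrays. Clones with dim channels carry ratios that rest on the added constant.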
